A study of Mus musculus with 4 samples.

Results

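Cortical thymic epithelial cells (cTEC) of mice lacking SCD1 were compared with those of littermate controls across the genes that could be counted in both libraries. A gene entered the comparison when its reads summed over the control and the knockout cTEC library reached 50, which held for 14445 of the 54532 genes in the count table. At this limit, the 47 genes with exactly 50 reads had a median absolute log2 ratio of 0.42, and the 60 genes with 49 reads, just outside, one of 0.45. Bulk RNA was sequenced from C57BL/6 thymus as 4 libraries, with cTEC sorted as Ly51+ UEA1− and medullary cells (mTEC) as Ly51− UEA1+. Each population was taken once from SCD1 knockout mice and once from control littermates labelled WT. The sources used here do not give the age of the mice, the number pooled per library, the deleted part of the gene or the cells that lack it. With 1 library on each side, no difference has a replicate check and no p-value was computed. The 95% intervals cover counting error only, and what follows compares these libraries, not the genotypes. In bulk RNA, fewer cells of a type and less RNA per cell cannot be told apart.

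Stearoyl-CoA desaturase 1 places the first double bond in saturated fatty acyl chains and so makes oleic acid from stearic acid. Cortical epithelial cells instruct early thymocytes: they supply the Notch ligand DLL4, the chemokines CCL25 and CXCL12, and peptides cut by their own proteasome subunit and proteases for positive selection. ATF4, a transcription factor made under several kinds of cell stress, switches on genes of amino acid supply and tRNA charging.

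The control cTEC library held 15740383 reads and the knockout cTEC library 18151725. The sort labels were matched by their markers. Enpep, which encodes Ly51, had 2830 and 3852 reads in control and knockout cTEC against 391 and 427 in control and knockout mTEC, and Psmb11, the thymoproteasome subunit, had 8462 and 12201 against 706 and 1026. Aire, the medullary regulator of tissue-restricted antigens, lay the other way, with 575 and 590 reads in cTEC and 21598 and 22186 in mTEC. Scd1 (ENSMUSG00000037071) itself had 325 reads in control and 73 in knockout cTEC, a log2 ratio of −2.34 (−2.74 to −1.98), so that the knockout library still held reads of the targeted gene.

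Levels are given as CPM, the reads of a gene divided by the scaled size of its library, and log2 ratios are knockout over control. A gene was counted as 2-fold higher or lower when its ratio reached that size and its interval excluded equality, and the same was done with a log2 ratio of 0.32, called the smaller threshold. By the 2-fold rule 71 genes were higher (0.492% of those compared) and 100 lower (0.692%), together 1.18%. By the smaller threshold 783 were higher (5.42%) and 829 lower (5.74%). Above 0 lay 7572 genes (52.4%). The counts for gene lists below stand beside these shares. Most genes differed little: the median log2 ratio was 0.01 and the median absolute log2 ratio 0.13. The large differences sat among scarce transcripts, since 49 of the 71 higher and 73 of the 100 lower genes had under 100 reads in the 2 libraries together, as had 1616 of all genes compared. Of the 6737 genes with 1000 or more reads, 1 was 2-fold higher, Gapdh, and 1 was 2-fold lower, the ribosomal pseudogene Gm10123, whose whole sequence recurs in other genes. Gm10123 had 2431 and 1211 reads, and together with its 10 copies 13532 and 16345.

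**Figure D1:**
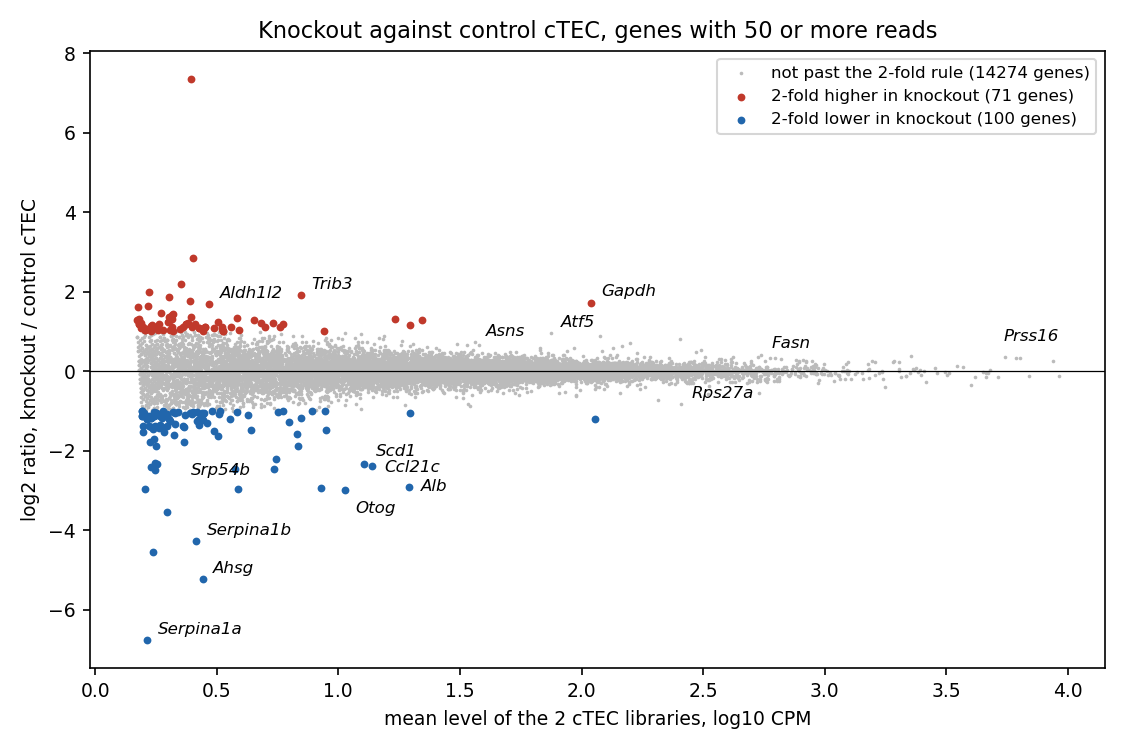
Log2 ratio of knockout over control cTEC against the mean level of the 2 libraries in log10 CPM, 1 point per gene with 50 or more reads. The 71 higher genes (red) and 100 lower genes (blue) lie mostly at the low end, apart from Gapdh at 1.72 and an unnamed blue point, the pseudogene Gm10123, at −1.20; the heights of the extreme points with 0 reads in 1 library (Serpina1a, Igkv4-59) depend on the prior count of 0.5.

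Genes of plasma proteins, which hepatocytes secrete and which medullary epithelium is known to transcribe as tissue-restricted antigens, had the lowest median of the lists compared. Of the 26 measured members of a list of 48, 13 were 2-fold lower, none was 2-fold higher, 17 were lower by the smaller threshold and 4 lay above 0. Some scarce members among the lower ones, such as Serpina1a and Serpina3k, reached the minimum of 50 reads only or mostly through their control reads. Of all genes compared, 0.692% were 2-fold lower and 5.74% lower by the smaller threshold. The list's median log2 ratio was −1.05, against 0.01 for all genes compared, and it is the same with Serpina1a, which had no read in knockout cTEC, at its bound. Over the members with 200 or more reads it was −0.24, and the reads of the whole list summed to 21474 and 19704 (−0.32), most of them from the complement gene C3, with 18192 and 17510 (−0.25). The 4 members above 0 were Cp, which carries copper, at 0.13 (330 and 414 reads), Fetub at 0.12 (41 and 51), Apoa4 at 0.08 (23 and 28) and Hp, which binds hemoglobin, at 0.05 (167 and 198). Alb, serum albumin, had 526 reads in control and 80 in knockout cTEC, a log2 ratio of −2.91 (−3.27 to −2.57). Ahsg, the fetuin that binds calcium phosphate, had 83 and 2 reads (−5.24, −8.64 to −3.67). Both genes were named for interval bounds far from 0, so that their intervals exclude equality by choice. The transport proteins were lower by less: Apoa1, the main protein of high density lipoprotein, had 149 and 75 reads (−1.18), Apoa2 70 and 28 (−1.5), Rbp4, the retinol carrier, 47 and 21 (−1.34), Ttr, the thyroxine carrier, 40 and 13 (−1.78) and Hpx, which binds heme, 74 and 27 (−1.63). Gc, the vitamin D carrier, stood at −0.97 (50 and 29 reads) and Afm at −0.52 (109 and 87 reads).

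Most antiprotease genes of the Serpina family were among the lower genes. Serpina1a had 50 reads in control cTEC and 0 in knockout cTEC, at least 19.1-fold lower if the knockout library is set to 3 reads. It reached the minimum of 50 reads through control cTEC alone, and Serpina3k and Serpina5 reached it mostly through control cTEC. Serpina1b had 76 and 4 reads, and since these genes share sequence the family of Serpina1a with its 5 copies was summed, which gave 181 and 21 reads (−3.27, −4.03 to −2.65). Serpina3k had 46 and 9 reads (−2.48), Serpina5, the protein C inhibitor, 45 and 10 (−2.31), and Serpina7, which carries thyroxine, 52 and 22 (−1.42). Serpina3n, the abundant acute phase member, had 1541 and 1226 reads (−0.53, −0.64 to −0.42). The 13 Serpina genes measured are a grouping made after the values were seen. Of these genes 6 were 2-fold lower (0.692% of all genes were), 10 lower by the smaller threshold (5.74%) and 1 was above 0. Their median of −0.97 was −0.40 over members with 200 or more reads and −0.47 without those that have near-identical copies. In the mTEC pair 4 of 16 lay above 0, with a median of −0.18.

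By the median over all measured members, intracellular genes of hepatocytes did not share the size of the plasma protein difference. Of 28 liver enzyme genes 10 were measured, with a median of −0.14, and 9 of the 10 lay below 0. Over members with 200 or more reads the median was −0.23, close to the −0.24 of the plasma protein genes. The contrast between these lists thus rests on their scarce members. Only Pck1, which starts gluconeogenesis, was 2-fold lower (42 and 18 reads). Cps1, the urea cycle entry enzyme, had 69 and 77 reads, Arg1 53 and 54, Ass1 153 and 162, and Otc none in either library. These are reads before scaling, and the knockout library was the larger one. Among the hepatic transcription factors Hnf4a had 8 and 4 reads, and 4 of 14 such genes reached 50 reads. Aire, given above, stood at −0.16 and Fezf2, the other regulator of tissue-restricted antigens, at −0.33 (907 and 829 reads, −0.47 to −0.19). The 20 measured mTEC identity genes, Aire and Fezf2 among them, had a median of −0.03. Of these, 9 lay above and 11 below 0, and 1 was higher and 2 were lower by the smaller threshold. The part of Aire and Fezf2 in the plasma protein result was not tested.

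The plasma protein genes were present in mTEC as well, where the difference between knockout and control library was smaller. Over 38 members measured in the mTEC pair, a different set from the 26 measured in cTEC, the median was −0.12 and 15 lay above 0. Alb had 633 and 381 reads there (−0.78), Ahsg 119 and 56 (−1.12) and Apoa1 640 and 734 (0.15). For Alb the cTEC log2 ratio minus the mTEC log2 ratio was −2.13 (−2.52 to −1.75).

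Single transcripts of other specialised tissues were lower, beside others that were higher or passed no threshold. Otog, a protein of the inner ear's gelatinous membranes, had 289 control and 41 knockout reads in cTEC (−3.0, −3.52 to −2.54), while the related genes Otoa (38 and 28), Strc (41 and 56) and Coch (35 and 34) did not pass either rule. In the mTEC pair Otog had 141 and 164 reads. The airway secretoglobin gene Scgb3a2 had 44 and 9 reads (−2.42), although the airway gene Bpifa1 was higher, with 4313 and 6360 (0.36, 0.31 to 0.42). Of 15 mucosal and glandular genes measured, 2 were higher and 3 lower by the smaller threshold, with a median of 0.05. The 21 mimetic cell markers had a median of −0.08, and 7 of them lay above 0. By the smaller threshold none was higher and 4 were lower (5.74% of all genes). Among the lower ones were the cornified cell gene Sbsn at −0.91 (166 and 101 reads) and the leukotriene synthase gene Ltc4s at −1.01 (32 and 18). The hormone genes Sst at −0.58 (129 and 99) and Chgb at −0.57 (128 and 99) were lower too.

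On the higher side, several genes known as targets of ATF4 were among the named genes. Trib3, a pseudokinase that feeds back on the stress response, had 45 reads in control and 195 in knockout cTEC (1.91, 1.44 to 2.42), while both mTEC libraries, with 139 and 164 reads, lay close together. Atf5, a transcription factor under the same control, had 778 and 1724 reads (0.95, 0.83 to 1.07), and Asns, asparagine synthetase, 422 and 800 (0.72, 0.55 to 0.90). The transporters Slc6a9 for glycine, with 164 and 302 reads (0.68), and Slc7a5 for large neutral amino acids, with 179 and 313 (0.61), and the cysteine-forming enzyme Cth, with 647 and 1040 (0.49), were higher too. Of 33 measured targets 9 were higher by the smaller threshold, 1 was lower, and 1, Trib3, was 2-fold higher. Over all genes compared these shares were 5.42%, 5.74% and 0.492%. Above 0 lay 23 of the 33, against 52.4% of all genes, with a list median of 0.10. In the mTEC pair the same list had a median of 0.02.

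The ATF4 list did not move as 1 block. The stress factor Ddit3 had 441 and 556 reads (0.14), Atf3 37457 and 43716 (0.03), Ppp1r15a, which restores translation, 13697 and 15089 (−0.06), and Slc7a11, the cystine importer, 954 and 948 (−0.21). Gdf15, a stress cytokine, was the lower one, with 98 and 78 reads (−0.52, −0.98 to −0.08). Chaperones and folding enzymes of the endoplasmic reticulum, the other arms' output, had a median of −0.01 over 25 genes, and none passed either rule: Hsp90b1 had 6839 and 7396 reads (−0.08) and Dnajb9 3704 and 4571 (0.11).

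Neighbouring metabolic groups lay on the same side. Of 17 genes of serine and one-carbon metabolism 16 were above 0, as were 52.4% of all genes compared. The list's median was 0.15 against 0.0049 in the mTEC pair. Aldh1l2, the mitochondrial enzyme that oxidises formyl tetrahydrofolate, had 21 and 79 reads (1.69, 1.0 to 2.48) and was the only one past a rule. The serine synthesis genes Psat1 (5800 and 7759 reads, 0.22) and Phgdh (2655 and 3382, 0.15) lay below the smaller threshold. Of the 20 cytosolic tRNA synthetases 16 were above 0, with a median of 0.10 against −0.05 in the mTEC pair, and Mars (744 and 1097 reads, 0.36) and Gars (741 and 1086, 0.35) were higher by the smaller threshold. Lars2, the mitochondrial leucyl-tRNA synthetase, had 1767 and 3124 reads (0.62, 0.54 to 0.71). The ribosomal RNA model CT010467.1, with 2829 and 5655 reads (0.80), was also higher.

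Promoter sequences were taken from RefSeq (GRCm38.p6), 250 bases before to 50 after each start, and matched by symbol to 10688 of the genes compared. The composite element bound by ATF4 with C/EBP partners, TGATGNAA on either strand, with overlapping matches allowed, was found in 3.97% of all 32851 promoters, in 11 of 38 promoters of the ATF4 list and in 5 of 12 of the tRNA synthetases. Trib3 and Asns are shown because they carry the element and were both higher; capitals mark it. The Trib3 stretch (chr2:152344039-152344138, minus strand) runs from base −78 to base 22 of the listed start, and its element, on the reverse strand, lies at bases 15 to 22. The Asns stretch (chr6:7693210-7693309, minus strand) is the 100 bases before the start, with the element at −23 to −16.
Trib3: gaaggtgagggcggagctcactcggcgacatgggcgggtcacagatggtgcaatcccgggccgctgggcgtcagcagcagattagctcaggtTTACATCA
Asns: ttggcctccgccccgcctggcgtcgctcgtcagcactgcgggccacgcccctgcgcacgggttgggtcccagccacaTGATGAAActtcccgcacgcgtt

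The ratios of list members with and without this match overlapped. The 10 measured ATF4 targets with the element had a median of 0.13, from Slc7a11 at −0.21 to Trib3 at 1.91, and the 17 with a listed promoter but no match one of 0.07, among them Atf5 at 0.95. The 5 tRNA synthetases with a match, Aars, Gars, Iars, Tars and Yars, had ratios from 0.14 to 0.35 with a median of 0.21, and 7 without one from −0.0074 to 0.19 with a median of 0.07. Among the promoters of genes 2-fold higher, 2 of 41 held the element, and among those 2-fold lower 2 of 67, against 313 of 13662 promoters (2.29%) of all genes compared.

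Several abundant genes of the cTEC program were higher in the knockout library. Of 18 identity genes, all measured, 14 lay above 0, 5 were higher by the smaller threshold (5.42% of all genes were), none was lower, and the median was 0.17. Prss16, the thymus-specific serine protease, had 86195 reads in control and 124382 in knockout cTEC (0.33, 0.32 to 0.34), and Ctsl, the cathepsin that cuts the peptides of MHC class II, 82753 and 120199 (0.34). Psmb11 stood at 0.33, Tbata at 0.39 (30021 and 45228 reads), and Cd83, which stabilises surface MHC class II, at 0.53 (3888 and 6436 reads, 0.47 to 0.59). The regulators were closer to equality, with Foxn1 at 0.27 (2628 and 3639 reads), Pax1 at 0.22 (11063 and 14774) and Pax9 at −0.07 (2613 and 2862). In the mTEC libraries, which hold far fewer of these transcripts, Prss16 stood at 0.49 and the list's median at 0.10.

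Of 14 factors that cortical cells supply to their niche, 2 were higher by the smaller threshold, 10 were above 0, and the median was 0.15. Dll4 had 1170 and 1696 reads (0.34, 0.23 to 0.45) and Bmp4, a growth factor for thymic epithelium, 49 and 111 (0.98, 0.48 to 1.5). The chemokines Cxcl12 (26868 and 36233 reads) and Ccl25 (28404 and 38208) both stood at 0.23. Il7, the survival cytokine, had 3529 and 4028 reads (−0.01), and Jag1, another Notch ligand, 2444 and 2353 (−0.25). Of 20 Notch pathway genes Dll3 was 2-fold lower (41 and 14 reads), the target Hey1 stood at 0.34 (1728 and 2505), and the median was −0.04.

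Antigen processing differed by part. The 18 core proteasome genes had a median of 0.10, with 16 above 0 and Psmb11 alone higher by the smaller threshold. Psmb10, an immunoproteasome subunit, had 5712 and 7400 reads (0.18), and Psmb8, another, 2163 and 2442 (−0.02). Of the 18 genes listed as lysosomal proteases 9 lay above and 9 below 0, with a median of 0.02. By the smaller threshold 4 were higher and 1 was lower (5.42% and 5.74% of all genes). The higher ones were Prss16 and Ctsl, given above, Lgmn at 0.44 (461 and 716 reads) and Ctss at 0.40 (332 and 502). Ctsh was lower, at −0.33 (418 and 380). None of 13 class II or 14 class I genes passed either rule: Ciita, the class II activator, had 3204 and 4084 reads (0.15), H2-Aa 42196 and 50722 (0.07) and H2-D1 50249 and 54249 (−0.09). Atg5, needed for autophagosomes, was higher (410 and 625 reads, 0.41), as the only one of 28 autophagy genes.

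Other abundant transcripts were higher beside these. Gapdh, the glycolytic enzyme, had 778 and 2948 reads in cTEC (1.72, 1.61 to 1.84) and 836 and 809 in mTEC, so that knockout cTEC alone stood apart. With its 46 copies the cTEC sums were 1159 and 3352, which would lack any reads left uncounted because they fit several places. Other genes of glycolysis did not share the size of the Gapdh ratio: the median of 21 genes, Gapdh included, was 0.06, with Gpi1 at 0.21 (4093 and 5425 reads) and Aldoa at 0.08 (12237 and 14803). Plekhb1 had 1641 and 2835 reads (0.59), Shisa6 361 and 665 (0.68), Ppp1r16b 448 and 812 (0.66), Asah1, the acid ceramidase, 1142 and 1959 (0.58) and Ada, adenosine deaminase, 825 and 1412 (0.58). In the mTEC pair the ratios of these 5 genes lay between −0.01 for Asah1 and 0.32 for Ppp1r16b.

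**Figure D2:**
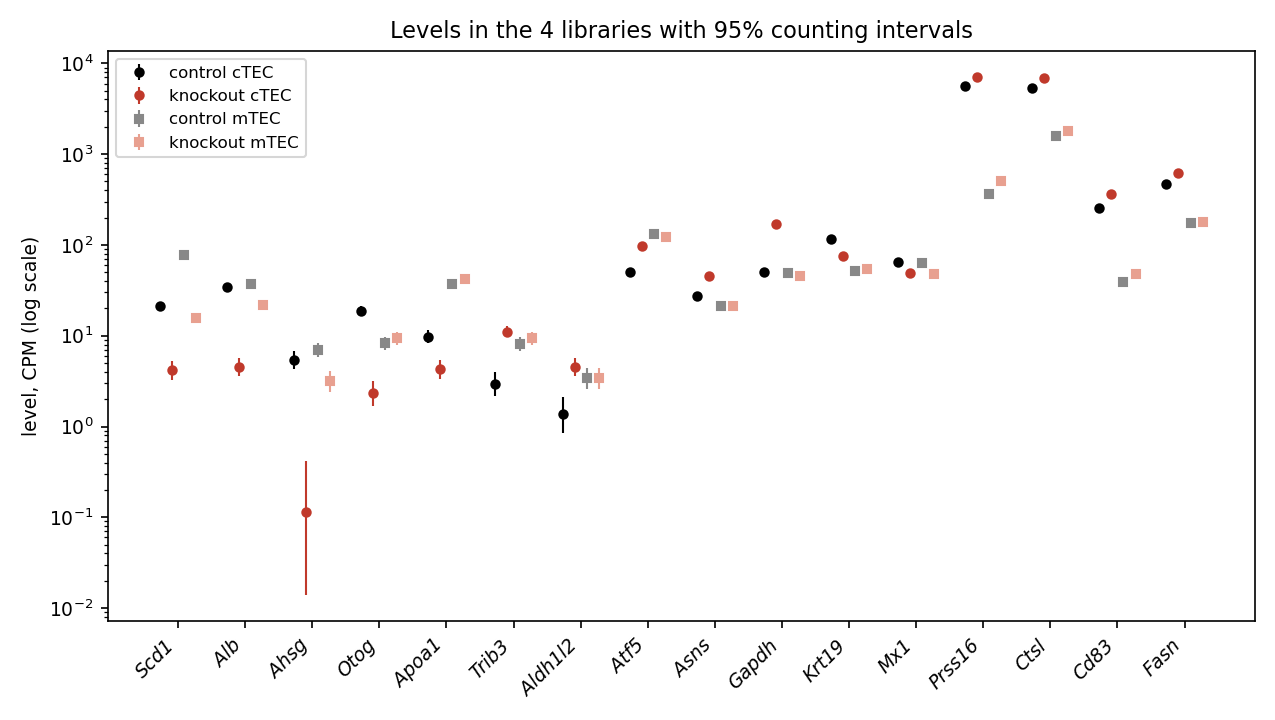
Levels in CPM on a log axis for 16 genes in the 4 libraries, with exact 95% Poisson intervals for counting error; circles are cTEC, squares mTEC. Scd1, Alb, Ahsg, Otog and Apoa1 lie lower in knockout (red circles) than in control cTEC (black circles), and Trib3, Aldh1l2, Atf5, Asns and Gapdh higher, with the mTEC squares of the latter 5 close together.

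Most other named genes at 2-fold higher were scarce. Sdhaf1, an assembly factor of succinate dehydrogenase, had 33 and 96 reads (1.33), Chac2, which degrades glutathione, 40 and 112 (1.28), Tox3 49 and 132 (1.22), Rnf125, a ubiquitin ligase, 44 and 118 (1.22), Efhc2 48 and 120 (1.12) and Ercc6l, a mitotic helicase, 12 and 44 (1.64). Cell division genes had a median of 0.11 over 26 genes of G2 and M phase, with Aurkb at 0.66 (50 and 91 reads) and Kif11 at 0.57 (104 and 177), but Ccnb1 at −0.97 (79 and 46) and Aurka at −0.99 (75 and 43). Corrected for GC content this median was 0.06.

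Lipid genes apart from Scd1 changed little. Of 18 genes of desaturation and elongation Scd1 alone passed a rule, and the sign of the list's median of 0.04 was not kept in every setting, turning to −0.06 with all genes of at least 1 read. Scd2, a desaturase gene of the same family, had 6776 and 8713 reads (0.16, 0.12 to 0.21), Elovl6, which supplies stearate, 585 and 681 (0.02), and the desaturase gene Fads2 215 and 222 (−0.15). Fasn, fatty acid synthase, was higher in knockout cTEC (7188 and 10981 reads, 0.41, 0.37 to 0.46) and level in mTEC (0.04), as the most abundant of 16 synthesis genes with a median of 0.03. Srebf1 had 7104 and 9344 reads (0.20) and Mlxipl 101 and 160 (0.46). Cholesterol synthesis had 18 of 24 genes above 0 and none past a rule (median 0.08). Among lipid uptake genes Lpl (1864 and 2725 reads, 0.35) and Fabp4 (202 and 321, 0.47) were higher, and Apoe (43530 and 41570) stood at −0.26.

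In the other direction, most interferon response genes had ratios slightly below 0, and few passed a threshold. Of 40 genes, all measured, 37 were below 0, with a median of −0.13, or −0.18 after correction for GC content. Mx1, an antiviral GTPase, had 999 and 855 reads (−0.42, −0.56 to −0.29), Oas2 362 and 313 (−0.41) and Dhx58 925 and 839 (−0.34), and these were the 3 of 40 past the smaller threshold, a share near the 5.74% of all genes. Isg15 had 4582 and 4237 reads (−0.31) and Irf1 18810 and 21543 (−0.0021). In the mTEC pair 7 of 40 were above 0 and the median was −0.09. The receptor genes had 673 and 731 reads for Ifngr2 (−0.08) and 1053 and 1137 for Ifnar1 (−0.09).

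The core of the interferon stimulated response element, GAAANNGAA on both strands, was found in 21 of 34 promoters of this list and in 8.56% of all promoters. Isg15 is shown because 3 overlapping matches, at −78 to −70, −72 to −64 and −66 to −58, form 1 run of capitals within the 100 bases before its start (chr4:156200819-156200918, minus strand).
Isg15: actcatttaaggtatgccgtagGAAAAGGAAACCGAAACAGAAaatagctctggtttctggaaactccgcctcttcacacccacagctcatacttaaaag

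The 20 measured genes with the element had a median of −0.16 and 9 with a listed promoter but no match one of −0.08. Their ranges overlapped, from −0.31 to 0.02 and from −0.28 to −0.0021.

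Some keratin genes were lower and others were not. Krt19, a keratin of simple epithelia, had 1767 and 1313 reads (−0.63, −0.73 to −0.52), Krt80 206 and 142 (−0.73) and Krt1 44 and 21 (−1.24), while Krt8 (51266 and 63885 reads) and Krt18 (54534 and 67773), the pair typical of cortical cells, both stood at 0.12. Of 17 keratins 5 were lower and none higher by the smaller threshold, against 5.74% and 5.42% of all genes. The keratin median was −0.18, against 0.06 in mTEC. The reads of all keratins summed to 180243 and 205903 (−0.0058). Collagens and laminins had a median of −0.12, which became −0.04 after GC correction, with Col7a1, of anchoring fibrils, at −0.47 (1746 and 1449 reads). Hspb1, a small heat shock protein, had 6091 and 4661 reads (−0.58) and led 31 immediate early and heat shock genes, of which 7 were above 0, with a median of −0.07. Only 2 of the 31, Hspb1 and Nr4a2 (−0.40), passed the smaller threshold, a share near the 5.74% of all genes. The extracellular peroxidase gene Gpx3 had 9715 and 7630 reads (−0.55), the sodium channel gene Scn7a 1748 and 1331 (−0.59) and the sulfotransferase gene Sult5a1 1012 and 770 (−0.59).

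**Figure D3:**
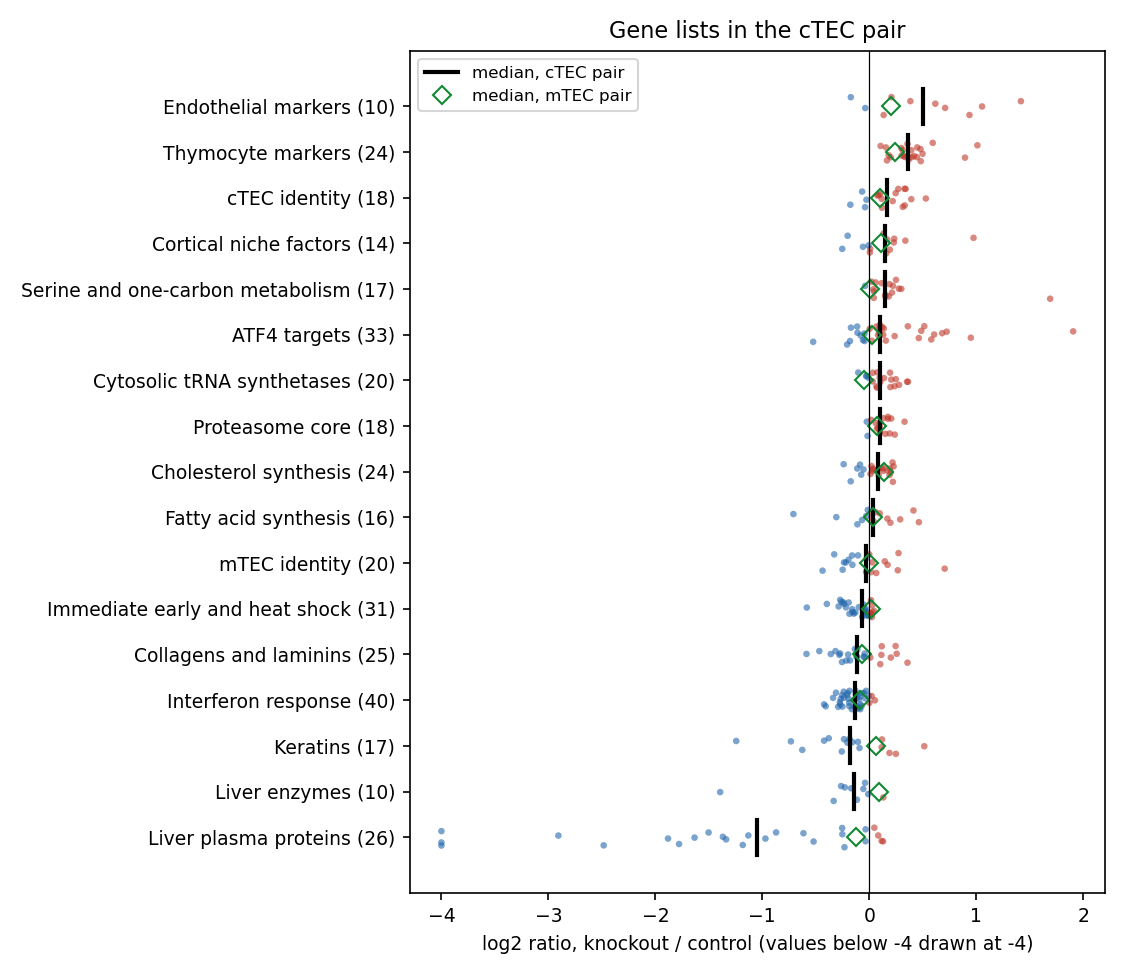
Log2 ratios of knockout over control in the cTEC pair for 17 gene lists, 1 point per gene with 50 or more reads (number in parentheses), red above and blue below 0. Bars are list medians, and open diamonds the medians of the same lists in the mTEC pair, over the members with 50 or more reads there. Plasma protein genes reach furthest to the left with a median of −1.05, and thymocyte and endothelial markers have medians of 0.36 and 0.50.

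Markers of other cells differed between the 2 cTEC libraries beside all these groups. All 24 measured thymocyte markers were above 0, with a median of 0.36, and 14 were higher by the smaller threshold (5.42% of all genes). Cd8a had 942 and 1472 reads (0.45), Tcf7 1535 and 2488 (0.50), Ptprc, the pan-leukocyte phosphatase, 408 and 626 (0.42) and Rgs1, which damps chemokine receptor signals, 88 and 204 (1.01). Summed over the list they made up 665 CPM in control and 860 in knockout cTEC, and 544 and 639 in mTEC, and no member was at 0. T cell receptor segments, a grouping made after the values were seen, were above 0 in 12 of 12 genes measured. Lef1, which thymocytes also express, stood at 0.58 (136 and 233 reads). The part of thymocyte RNA in the higher genes was not tested.

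The 21 endothelial markers summed to 44.6 CPM in control and 64.1 in knockout cTEC, and 10 of them were measured, with a median of 0.50. Pecam1 had 130 and 286 reads (0.94), Cdh5, the junction cadherin, 17 and 53 (1.42) and Mmrn2 22 and 53 (1.05), but Vwf 51 and 57 (−0.04) and Flt1 59 and 60 (−0.17). Macrophage and dendritic cell markers had a median of 0.25 over 15 genes, led by the complement gene C1qc (99 and 196 reads, 0.78), with sums of 390 and 380 CPM. Fibroblast markers had a median of −0.04, with sums of 800.3 and 779 CPM. B cell markers summed to 174 and 175 CPM, and erythroid markers to 3.47 and 3.02, with no member at 50 reads.

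Several antibody genes, read by plasma cells of individual clones, were lower. Ighg2c had 229 reads in control and 34 in knockout cTEC (−2.93), Igkv3-2 51 and 2, and Ighg1 44 and 6. Igkv4-59 had 0 and 87, at least 25.3-fold higher if the control library is set to 3 reads, and was measured through knockout cTEC alone. Igkv4-59 shares 74.3% of its sequence with other genes, and with its 4 copies the sums were 118 and 110 reads (−0.30, −0.69 to 0.09), while its relative Igkv4-68 had 98 and 20. Of the 17 immunoglobulin segments measured, also grouped after the values were seen, 1 was 2-fold higher (0.492% of all genes) and 5 were 2-fold lower (0.692%). Their sum was 277 and 246 CPM.

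Mitochondrial transcripts were higher in knockout cTEC, in a grouping made likewise. They summed to 296457 and 408647 reads (0.27), with mt-Cytb at 0.35 (73688 and 108004 reads) and mt-Co1 at 0.25 (121154 and 164730), and the corresponding median over 17 genes was 0.19, or 0.12 after GC correction. Nuclear genes of the respiratory chain had a median of 0.06, with Sdhaf1 and Ndufs3 (928 and 1339 reads, 0.33) higher and Ndufa12 (691 and 433, −0.87) lower. The pseudogene Gm15920, a copy of Ndufa12, had 185 and 477 reads, and both together 876 and 910 (−0.14, −0.28 to −0.0074).

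Near-identical copies were frequent among the genes with large ratios. A gene was counted as having copies when 25% or more of the 50-base windows of its longest GENCODE transcript recurred in another gene, which held for 41 of the 171 genes past the 2-fold rule and for 5.97% of all genes compared. The sources used here do not say how reads with several places of origin were treated, and any left uncounted would be missing from the sums below. For 37 of the 41 a specific partner was found. With the partners' reads added, 8 of the 37 genes were still past the rule in the same direction, among them Gapdh, Mup20, Serpina1a, Serpina1b and Serpina1e. The sums of the Serpina1 genes share members, so the 8 are not separate families. Srp54b, which helps target secreted proteins, had 141 and 29 reads, and its family 474 and 399 (−0.45). Sarnp had 151 and 428 reads, and its family 716 and 949 (0.21). Ube2n-ps1 had 9 and 78 reads, and its family 1211 and 1412 (0.02). Rps27a, a ribosomal protein fused to ubiquitin, had 5023 and 3246 reads, and its family 5259 and 3571 (−0.76).

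The CCR7 ligand gene Ccl21a on scaffold JH584294.1 had 1843 and 3447 reads (0.71), Ccl21c on scaffold GL456350.1 354 and 77 (−2.39), and the Ccl21a model on chromosome 4 279 and 387 (0.27). Copies of the 2 scaffold models were not measured, and reads may be divided among them. Summed over all 6 models of Ccl21a, Ccl21b and Ccl21c, the reads were 2481 and 3920 (0.46, 0.39 to 0.54).

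Transcript base composition went along with the cTEC ratio. Over 6409 protein-coding genes with 1000 or more reads and without copies, the tenth lowest in GC content (median 39.9%) had a median log2 ratio of 0.07 and the tenth highest (median 59.5%) one of −0.06, with a Spearman correlation across genes of −0.29 and a Pearson correlation of −0.28. In the mTEC pair the corresponding medians were 0.00061 and −0.0031, and the Spearman correlation was −0.01. Gene length had Spearman correlations of 0.06 in cTEC and −0.15 in mTEC. Genes are not independent replicates, and all of them share these libraries.

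**Figure D4:**
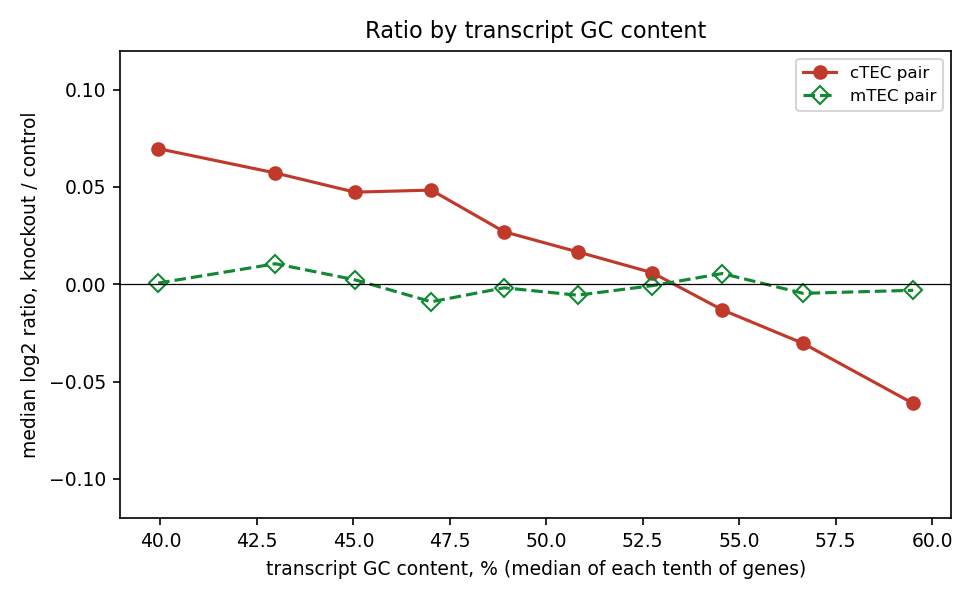
Median log2 ratio of knockout over control in 10 equal groups of genes ordered by transcript GC content (x axis, median GC of each group), for 6409 protein-coding genes with 1000 or more reads and without near-identical copies. The cTEC line (red) falls from 0.07 to −0.06 while the mTEC line (green) stays between −0.0090 and 0.011.

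Levels in mTEC were set beside those in cTEC, with the reservation that the cTEC reads also entered the rule and that most of these genes were scarce in cTEC. Of those lower in knockout cTEC, 39 of 100 had a mean mTEC level at least 2 times the mean cTEC level, against 22.5% of the higher genes and 11% of all genes compared. Their median level was 2.13 CPM in cTEC and 4.60 in mTEC, and that of the higher genes 2.37 and 2.69. Chromosome 12, with the Serpina cluster and the immunoglobulin heavy chain locus, held 11 of the 100 lower and 3 of the 71 higher genes, against 3.72% of all compared. Both sets were short, with median gene lengths of 2324 and 2554 bases against 4171. Protein-coding genes made up 75 of the 100 and 47 of the 71, and pseudogenes 9 and 11.

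The same genes were also compared between the knockout and control libraries of mTEC. Of the 52 higher genes with 50 or more reads in the mTEC pair 29 lay above 0 there (55.8%), and of the 83 lower genes 39 did (47.0%), against 51.2% of all genes. Past the 2-fold rule in the same direction were 3 higher genes, Gm9826, Mmrn2 and Rps25-ps1, and 5 lower, Scd1, Ahsg, Gm13304, Tmem254c and Wnt2. In the opposite direction 1 higher and 5 lower genes passed it. Over all genes compared, 65 of the 13953 with 50 or more mTEC reads were past the rule in mTEC in either direction. Among the genes past the rule in the same direction in both pairs, Scd1, Ahsg, Mmrn2 and Wnt2 have under 25% of their sequence in copies. Wnt2 had 37 and 19 reads in cTEC and 35 and 17 in mTEC.

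**Figure D5:**
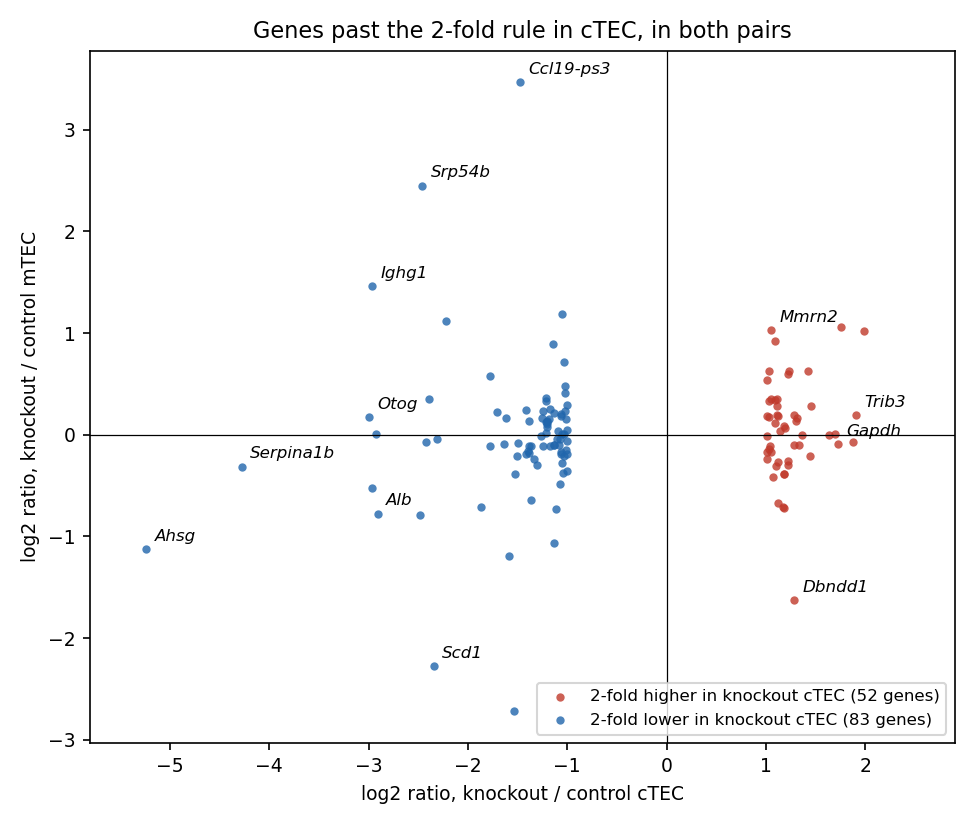
Log2 ratios of knockout over control in cTEC (x axis) and mTEC (y axis) for genes past the 2-fold rule in cTEC that had 50 or more reads in the mTEC pair, 52 higher (red) and 83 lower (blue); the gap in the middle of the x axis is set by the rule. Scd1 and Ahsg are low in both pairs, and Srp54b, Ighg1 and Ccl19-ps3 lie in opposite directions.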

How the data were processed

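A table deposited by the authors holds raw counts of reads for each gene in 4 libraries, 1 per group, together with gene length in bases, an other unit used only to describe genes. Per the submitters' processing notes, CASAVA, HISAT2 2.0.5 and featureCounts 1.5.0-p3 were used on mm10; the sources used here give neither the gene annotation nor how strand and reads with several places of origin were handled.

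Counts were scaled over the 4 libraries by the trimmed mean of M-values in edgeR 4.0.16 (R 4.3.3), with factors of 0.971 and 0.966 for control and knockout cTEC. Log2 ratios carry a prior count of 0.5 reads and an exact conditional binomial (Clopper-Pearson) 95% interval, CPM an exact Poisson one, and a count of 0 a floor of 3 reads, which is 0.196 CPM in control and 0.171 in knockout cTEC. Because PCR copies molecules, these intervals and floors describe counting error and nothing else. Differences between pairs have a normal-approximation interval. Correction for GC content subtracted the median of genes in the same 1 of 20 groups by transcript GC. Python 3.11.15 with numpy 2.4.6, pandas 2.3.3, scipy 1.17.1 and matplotlib 3.10.9 was used, and the ratio script was tested on simulated data.

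Named were Scd1; the 12 higher and 12 lower protein-coding genes past the 2-fold rule, and the 12 and 12 of any type with 1000 or more reads past the smaller threshold (a log2 ratio of 0.32), with the interval bound farthest from 0 (without predicted models and antigen receptor segments); up to 4 noncoding genes a side; and list members past the 2-fold rule or, failing that, up to 5 with the farthest bounds. Further members are named to show a list's spread and were chosen after their values were seen. The genes compared, the 48 lists and the rules were chosen with earlier results of these data known. The alternatives tried are given in the closing section. Some results on single genes and on 1 promoter motif are not reported here.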

Additional observations from a re-analysis of the deposited data

Results flagged for a closer look

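Several genes had ratios of opposite direction in the 2 populations, with both counting intervals excluding equality; with 1 library per group these differences were not tested. They are given as the cTEC log2 ratio minus the mTEC log2 ratio.

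Most of them share sequence with other genes. Srp54b had 141 and 29 reads in control and knockout cTEC and 31 and 177 in mTEC, a difference of −4.91 (−5.70 to −4.12). Ccl19-ps3 had 200 and 82 reads in cTEC and 44 and 507 in mTEC (−4.95), Gm10705 140 and 34 against 68 and 153 (−3.34), and Eif3j2, a translation initiation subunit, 51 and 28 against 24 and 57 (−2.24). Sumo2, a ubiquitin-like modifier, differed by −2.58 (669 and 434 reads in cTEC, 498 and 1733 in mTEC), Ndufa12, of respiratory complex I, by −2.04 (691 and 433, 326 and 758, with 17.2% of its sequence in copies; with its copy Gm15920 the cTEC reads were 876 and 910), and Rps27rt by −1.29 (1472 and 1152, 1777 and 3052). Ccl21a on scaffold JH584294.1, whose copies were not measured, differed by 0.78 (1843 and 3447 reads in cTEC, 3577 and 3504 in mTEC).

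Genes with under 1% of their sequence in copies were fewer. Atf5, the stress-induced transcription factor, had 778 and 1724 reads in cTEC and 2238 and 2137 in mTEC, a difference of 1.06 (0.91 to 1.21). Dbndd1 had 13 and 37 reads in cTEC and 40 and 13 in mTEC (2.91, 1.65 to 4.17). The antibody gene Ighg1 had 44 and 6 reads in cTEC and 38 and 109 in mTEC (−4.43).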

How the results depend on the processing

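With a minimum of 200 reads, 7 genes were 2-fold higher and 13 lower, and with a minimum of 1 read 496 and 684; by the smaller threshold (log2 ratio of 0.32) the counts were 493 and 471, and 1217 and 1415. With a 1.5-fold threshold 311 were higher and 365 lower, and among protein-coding genes 47 were 2-fold higher. Medians moved for cTEC identity (0.22 with a minimum of 200 reads and also without near-identical copies), plasma proteins (−0.24 with a minimum of 200 reads), B cell markers (0.15 with a minimum of 200 reads, 0.18 with 1 read, −0.14 for protein-coding genes) and the mitochondrial genome (0.22 without copies, 0.12 after GC correction). Of the other lists with a median of at least 0.1 in size, these changed by over 1.5 times: Serpina genes (−0.40 with a minimum of 200 reads, −0.47 without copies), T cell receptor segments (0.22 with 200 reads), inner ear genes (−0.16 with 1 read), immunoglobulin segments (−0.60 without copies, 0.13 with 1 read), liver enzymes (−0.23 with 200 reads and with 1 read), G2 and M phase (0.20 with 200 reads, 0.06 after GC correction) and collagens (−0.04 after GC correction). Hspb1 was the 1 named gene of 55 to move, to −0.51 after GC correction, and all 55 kept their sign in every setting. Of 51 list medians 44 did so; the others were B cell markers, desaturation and elongation, glycerolipids, hepatic transcription factors, immunoglobulin segments, lysosomal proteases, and phospholipids. DESeq2 1.42.0 size factors and total reads shifted all ratios by under 0.01. The GC correction was chosen after seeing the data. No paired analysis was possible because each group has 1 library and no replicate numbers are shared in the labels. For the scarce genes that make up most calls, depth limits the precision.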
